A study of Homo sapiens with 2 samples.

Results

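CD74 and 9 further genes of the MHC class II antigen presentation machinery were examined in J82, an established human bladder cancer cell line. The genes were chosen by name with earlier results of these same arrays known, because CD74 had one of the largest differences between the 2 arrays. Their differences are therefore descriptions and not evidence for the choice. The 10 genes are CD74, the class II transactivator gene CIITA, the RFX complex genes RFX5, RFXANK and RFXAP, the chain genes HLA-DRA and HLA-DPA1, and the peptide-editing genes HLA-DMA, HLA-DMB and HLA-DOA. Of these, 8 had a probe set annotated with that gene symbol alone, out of 14232 genes measured in that way. HLA-DMA and RFXANK had none and were read only through probe sets annotated with several genes.

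J82 cells were grown in DMEM with serum and given no treatment according to the labels. They were stained with Hoechst, a DNA dye, and sorted into a side population (SP), which keeps little dye because it is pumped out, and a non-side population (NSP), which retains it. Total RNA of each population was hybridised to a human exon array. Each population has a single array and no replicate, so no value below has an error between samples, no difference was tested, and population, sort and array cannot be told apart.

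MHC class II molecules are pairs of an alpha and a beta chain that carry peptides from endosomes to the cell surface, where CD4+ T cells read them. The invariant chain, the product of CD74, binds newly made class II pairs, blocks their groove and guides them to endosomes, where proteases cut it down to the fragment CLIP. HLA-DM then exchanges CLIP for peptide, and HLA-DO restrains HLA-DM. Transcription of the class II genes and of CD74 is driven from promoter boxes called X and Y, on which the RFX complex, CREB1 and NF-Y assemble and recruit CIITA. Dendritic cells, macrophages and B cells use this system constitutively, and many other cells switch it on under interferon-gamma. CD74 also reaches the cell surface without class II, where it is a receptor for the cytokine MIF.

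Stretches of promoter are shown for CD74 and for 4 class II genes to set letters like those of the X and Y boxes beside the array values. Not every stretch holds both. They are the 150 bases before the annotated start, 5′ to 3′ on the gene's strand, from RefSeq on GRCh38.p14. Capitals mark letters that match CCNNGNAAC, a short form of the X1 part of the X box, or ATTGG, the core of the Y box (also read from the other strand as CCAAT). CD74 lies on the minus strand at chr5:150412911-150413060, HLA-DOA on the minus strand at chr6:33009592-33009741, and the second annotated start of HLA-DPA1 on the minus strand at chr6:33073650-33073799. HLA-DMB lies on the minus strand at chr6:32941029-32941178 and HLA-DMA on the minus strand at chr6:32953098-32953247.
CD74: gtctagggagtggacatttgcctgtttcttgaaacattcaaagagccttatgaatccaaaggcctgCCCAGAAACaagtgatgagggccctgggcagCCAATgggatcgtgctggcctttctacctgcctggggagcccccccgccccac
HLA-DOA: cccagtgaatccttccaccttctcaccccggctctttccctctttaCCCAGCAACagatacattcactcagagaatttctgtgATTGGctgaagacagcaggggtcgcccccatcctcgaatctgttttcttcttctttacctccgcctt
HLA-DPA1: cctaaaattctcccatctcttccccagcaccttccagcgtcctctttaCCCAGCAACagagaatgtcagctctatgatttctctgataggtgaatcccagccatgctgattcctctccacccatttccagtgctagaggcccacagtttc
HLA-DMB: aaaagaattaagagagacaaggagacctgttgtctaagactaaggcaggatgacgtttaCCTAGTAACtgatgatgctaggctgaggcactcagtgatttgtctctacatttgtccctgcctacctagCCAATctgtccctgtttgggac
HLA-DMA: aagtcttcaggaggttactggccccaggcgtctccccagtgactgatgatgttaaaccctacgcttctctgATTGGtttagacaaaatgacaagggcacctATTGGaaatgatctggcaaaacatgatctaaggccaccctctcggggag

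In the CD74 promoter the X1-like match ran from base -84 to -76 before the start, and a Y-like match on the other strand lay 22 bases further on. HLA-DOA held an X1-like match followed by a Y-like match after 28 bases, both on the gene's strand. HLA-DMB had 60 bases between its matches, HLA-DPA1 had an X1-like match without a Y-like one, and HLA-DMA had 2 Y-like matches and no X1-like one. Matches were also found outside the class II chain genes. RFX5 at its first annotated start held an X1-like match and 2 Y-like ones, all on the other strand, and RFXANK held an X1-like match before 2 of its 3 starts, the same site in overlapping windows. RFXAP, the first start of HLA-DPA1 and the other starts of RFX5 and RFXANK held none. Both motifs were searched on both strands of the 250 bases before each start, and no matches overlapped in the stretches shown. Among 35116 such windows of RefSeq genes, 12.9% held the X1-like letters, 32.0% the Y-like letters and 4.14% both. An X1-like match on the gene's strand followed by a Y-like match after 10 to 40 bases, a spacing set after these sequences were seen, stood in 0.376% of windows. Of the 10 genes, 8 were found in the promoter table, while HLA-DRA and CIITA were not. These matches are descriptions of letters and say nothing about binding in J82 cells.

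**Figure D1:**
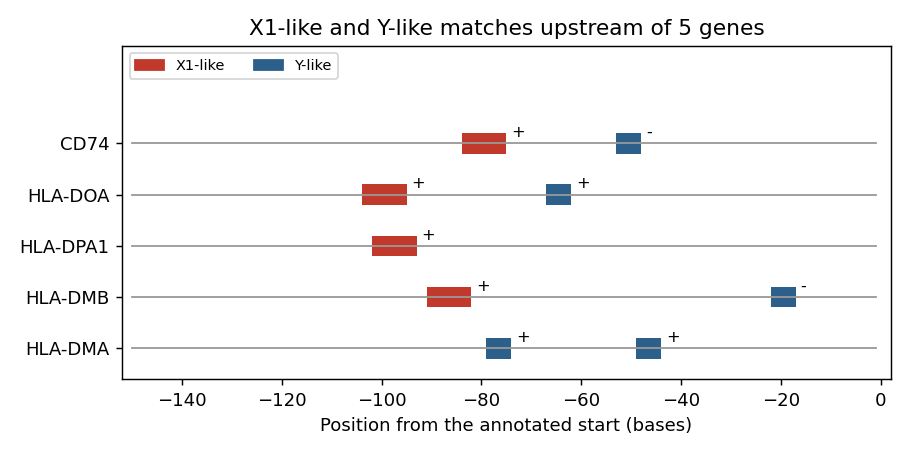
Positions of X1-like (red) and Y-like (blue) letter matches in the 150 bases before the annotated start of 5 genes, with the strand of each match as + or -. The 22-base gap of CD74 and the 28-base gap of HLA-DOA are shorter than the 60-base gap of HLA-DMB.

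The file held log2 signals made by RMA for 22011 probe sets, with a median of 7.43 in SP and 7.44 in NSP. The median over both arrays, 7.44, is called the floor below, and 7549 named genes reached it on at least 1 array. For these genes SP minus NSP centred on a median of -0.05 with a spread (SD over genes) of 0.281, and 59.6% of them were lower in SP. Over all 14232 genes the median was 0.00 and 49.5% were lower in SP. Among markers of the urothelial line, the keratin genes KRT7, KRT8, KRT18 and KRT19 reached the floor in SP and in NSP, whereas GATA3, UPK1A, UPK2 and EPCAM lay under it. The mesenchymal genes VIM, CDH2 and FN1 reached it as well. Efflux pump genes preset as a check of the sort were higher in SP, by 0.70 for ABCB1, 0.38 for ABCC1 and 0.45 for ABCG2, which lay under the floor. Further genes of the ABCC family were mostly lower in SP. ABCC3, ABCC4, ABCC5 and ABCC10 reached the floor and differed by -0.36, -0.06, -0.08 and -0.07. Under the floor ABCC2 and ABCC9 differed by -0.15 and -0.06, ABCC12 was higher by 0.13, and ABCC13 did not differ.

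CD74, read by 1 probe set, had a signal of 8.99 in SP, against 7.52 in NSP. The difference of 1.47 on the log2 scale is a fold of 2.77, and the NSP value lay just above the floor. Among the 7549 genes at the floor CD74 was the seventh highest difference, rank 7. Of 2915 other genes with a mean signal within 0.5 of that of CD74, only NFATC2 had a larger positive difference, named here after its value was seen. In either direction, 3 of these genes (0.103%) had a difference at least as large in size. CD74 was the only one of the 4 class II genes at the floor that was at least 2-fold higher in SP, where 0.609% of all genes at the floor were. None of the 4 was at least 2-fold lower in SP, where 0.119% of all genes were. At 1.5-fold the members' counts were again 1 higher and 0 lower, beside 3.10% and 1.43% of all genes. With the genes chosen for this contrast, nothing is read from these counts.

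The chain genes that the invariant chain serves had nearly equal values in SP and NSP. HLA-DRA, the alpha chain of the most abundant class II molecule in antigen-presenting cells, had 8.02 in SP and 7.99 in NSP, a difference of 0.03. HLA-DPA1, the alpha chain of HLA-DP, had 8.27 in SP and 8.27 in NSP, a difference of -0.004 whose sign turned under median centring (0.01), lowess (0.05) and quantile normalisation (0.03). Both genes lay above the floor in SP and in NSP. In the band of signal around HLA-DRA 86.0% of the other genes had a difference at least as large in size, and around HLA-DPA1 98.8% did. The difference of CD74 was thus not matched by either alpha chain on the same pair of arrays.

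The beta chain genes could be followed only in part. HLA-DPB1, the partner of HLA-DPA1, had 6.84 in SP and 7.04 in NSP, a difference of -0.20. HLA-DQA2 had 6.24 in SP and 6.17 in NSP, and HLA-DQB2 had 6.22 in SP and 6.41 in NSP. These 3, named because no others were measured, lay under the floor in SP and in NSP. HLA-DRB1, HLA-DRB3, HLA-DRB4, HLA-DRB5, HLA-DQA1, HLA-DQB1 and HLA-DOB had no probe set of their own. A probe set annotated with 5 HLA-DRB genes had 5.30 in SP and 5.02 in NSP. Another, annotated with 3 of the same genes, had 3.61 in SP and 3.94 in NSP. Both are dim and their differences had opposite signs, 0.28 and -0.33, so the DRB genes have no settled direction here. These HLA-DRB genes are closely similar in sequence and can share probes.

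**Figure D2:**
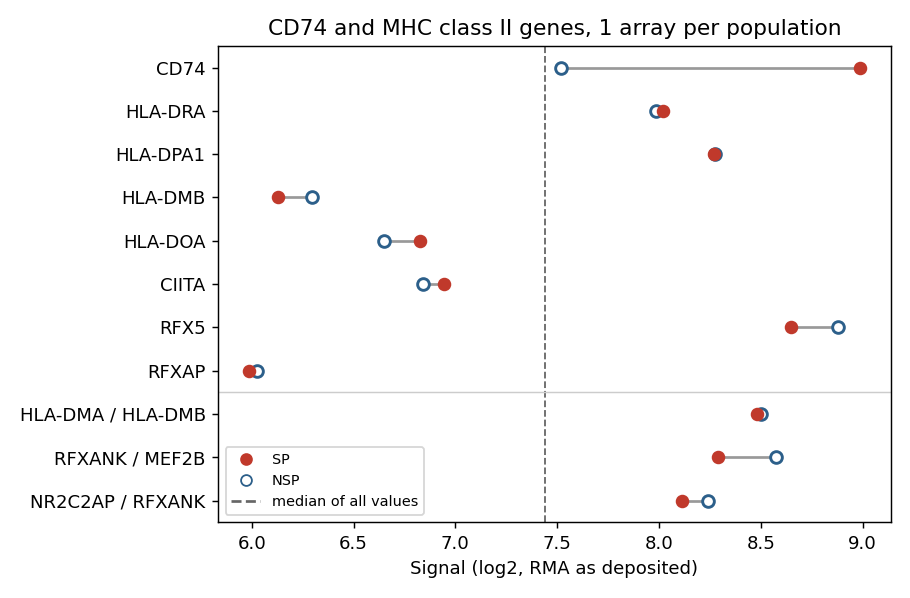
Log2 signal of the 8 class II genes with their own probe set (upper rows) and of the 3 probe sets shared with another gene (lower rows), in SP (filled) and NSP (open), with 1 array each and no error bars. CD74 spans 8.99 in SP and 7.52 in NSP, while every other pair lies within 0.3 of one another.

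The peptide editors differed little in SP against NSP. HLA-DMB, the beta chain of the exchange factor HLA-DM, had 6.13 in SP and 6.30 in NSP, a difference of -0.17 under the floor. The probe set shared by HLA-DMA and HLA-DMB was brighter, with 8.48 in SP and 8.50 in NSP, a difference of -0.02. That difference is close to 0, so nothing is read from its sign. The shared probe set cannot separate HLA-DMA from HLA-DMB and is not a second reading of HLA-DMB alone. HLA-DOA, the alpha chain of the HLA-DM inhibitor HLA-DO, had 6.83 in SP and 6.65 in NSP, a difference of 0.18 under the floor. Its partner HLA-DOB was read only together with the peptide transporter gene TAP2, at 6.81 in SP and 7.33 in NSP. TAP2 on its own probe set had 10.20 in SP and 10.35 in NSP, a difference of -0.15, so the -0.52 of the shared probe set is assigned to neither gene.

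CIITA and the RFX complex genes differed by less than 0.3 either way. CIITA, the coactivator on which class II transcription depends, had 6.94 in SP and 6.84 in NSP, a difference of 0.10 under the floor. In its band of signal 58.1% of the other genes had a difference at least as large in size. RFX5, the DNA-binding subunit of the RFX complex, had 8.65 in SP and 8.88 in NSP, a difference of -0.23 and the lowest of the 8. RFXAP, another RFX subunit, had 5.99 in SP and 6.03 in NSP, a difference of -0.04 under the floor. RFXANK, the third subunit, was read by 2 shared probe sets. The one shared with MEF2B had 8.29 in SP and 8.57 in NSP, and the one shared with NR2C2AP had 8.11 in SP and 8.24 in NSP, so both were lower in SP, by -0.28 and -0.13.

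Over the 8 genes 4 were higher and 4 lower in SP. Their median difference was 0.02 and their mean 0.17. Under median centring, lowess or quantile normalisation 5 were higher and 3 lower, through HLA-DPA1. The 7 without CD74 had a median of -0.004 and a mean of -0.02, so CD74 alone sets the positive mean. The order of the differences was CD74, HLA-DOA, CIITA, HLA-DRA, HLA-DPA1, RFXAP, HLA-DMB and RFX5. The last 7 span -0.23 to 0.18, inside the central 95% of all genes at the floor (-0.51 to 0.63). Neighbours among those 7 cannot be ranked with 1 array per population.

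**Figure D3:**
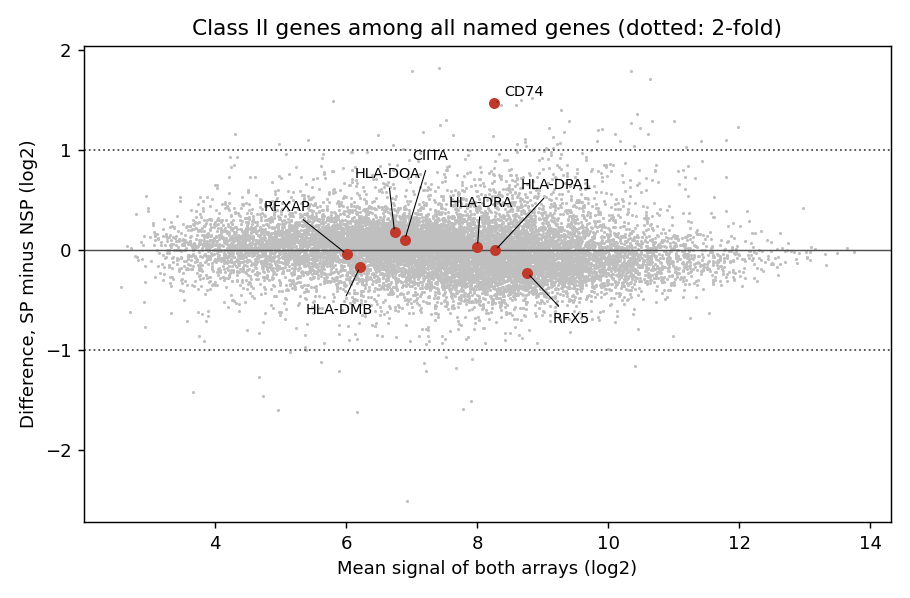
Difference SP minus NSP (log2) against the mean signal of both arrays (log2) for 14232 named genes (grey), with the 8 class II genes in red and 2-fold as dotted lines. CD74 (1.47) lies above the upper line and the other 7 lie within 0.23 of 0.

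Other factors of the class II promoter showed one larger value. CREB1, which binds the X2 part of the X box and many other promoters, had 10.44 in SP and 9.66 in NSP, a fold of 1.72. CREBBP, a histone acetyltransferase that CREB1 and CIITA recruit, had 10.02 in SP and 9.60 in NSP, a difference of 0.42. NFYB, the one NF-Y subunit measured, had 6.67 in SP and 6.75 in NSP, under the floor. ZXDC, a coactivator of CIITA, differed by -0.23 and CARM1, an arginine methyltransferase, by -0.16. Of 14 genes in this list 9 were measured, 4 higher and 5 lower in SP, with a median of -0.08 and a mean of 0.08, which differ in sign. Among all genes at the floor 59.6% were lower in SP, and 3.10% were at least 1.5-fold higher. CREB1 alone of the 7 list genes at the floor passed that fold, and nothing is read from that count. NFYA, NFYC and EP300 had no probe set of their own.

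Genes on the interferon-gamma route to CIITA were mostly higher in SP by small margins. Of 13 measured genes 9 were higher and 4 lower, with a median of 0.24, and none of the 10 at the floor reached 1.5-fold. With lowess 8 were higher and 5 lower. Of all genes at the floor 59.6% were lower in SP. At 1.5-fold 3.10% of those genes were higher and 1.43% lower, so nothing is read from the absence of such genes in this list. IFNGR1, the ligand-binding receptor chain, had 9.22 in SP and 8.78 in NSP, a difference of 0.44. IRF2, which binds the CIITA promoter, differed by 0.40 and IRF1, which binds there too, by 0.18. PTPN2, a phosphatase that damps JAK signalling, differed by 0.34. JAK2, the kinase of the receptor, had 6.20 in SP and 6.16 in NSP under the floor. CXCL10, a chemokine induced by interferon-gamma, went the other way, with 8.38 in SP and 8.74 in NSP, a difference of -0.36. The inducible enzyme gene IDO1 and the chemokine gene CXCL9 lay under the floor, at 0.32 and -0.21, and are named outside the rule for named genes.

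Genes of invariant chain processing and peptide loading were all lower in SP among those measured as deposited, where 59.6% of all genes at the floor were lower. None of the 6 at the floor was lower by 1.5-fold, beside 1.43% of all genes at the floor, so nothing is read from that count. The list also holds the ubiquitin ligases MARCHF1 and MARCHF8. The ligases act on surface class II molecules and process neither the invariant chain nor peptides. MARCHF1 differed by -0.31, under the floor, and MARCHF8 by -0.04. All 8 measured genes of 10 were lower, with a median of -0.20 and a range of -0.51 to -0.04, beside a median of -0.05 over all genes at the floor. After removal of a lowess trend on signal 6 were lower and 2 higher, with a median of -0.13. CTSV, a cathepsin that cuts the invariant chain in thymic epithelium, had 7.62 in SP and 8.13 in NSP, a fold of 1.42. CTSB, a broad lysosomal protease, had 10.23 in SP and 10.68 in NSP, a fold of 1.36. SPPL2A, the membrane protease that removes the last CD74 fragment, had 8.80 in SP and 9.02 in NSP. IFI30, a lysosomal thiol reductase that opens antigens, had 11.45 in SP and 11.63 in NSP. LGMN, an endosomal protease, differed by -0.05. CTSS, the main invariant chain protease of antigen-presenting cells, had 5.45 in SP and 5.48 in NSP, under the floor. CTSL and CTSD had no probe set of their own. CD74 and these genes thus lay on opposite sides of 0 in the deposited values.

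The partners of CD74 as a surface receptor did not differ one way. CXCR4, a chemokine receptor that pairs with CD74 in MIF binding, had 8.98 in SP and 8.67 in NSP, a difference of 0.31. CD44, the signalling partner of CD74, had 8.15 in SP and 8.09 in NSP, a difference of 0.06. DDT, the second ligand and a relative of MIF, had 9.82 in SP and 10.43 in NSP, a fold of 1.53 and lower in SP. COPS5, which binds MIF inside cells, differed by -0.31. MIF itself and CXCR2 had no probe set of their own. Of 5 measured genes 3 were higher and 2 lower, with a median of 0.01 and a mean of -0.11, which differ in sign. The median itself turned to -0.04 under lowess and to -0.003 under quantile normalisation. Among all genes at the floor 59.6% were lower in SP, and 1.43% were at least 1.5-fold lower. DDT alone of the 4 list genes at the floor passed that fold, and nothing is read from that count.

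**Figure D4:**
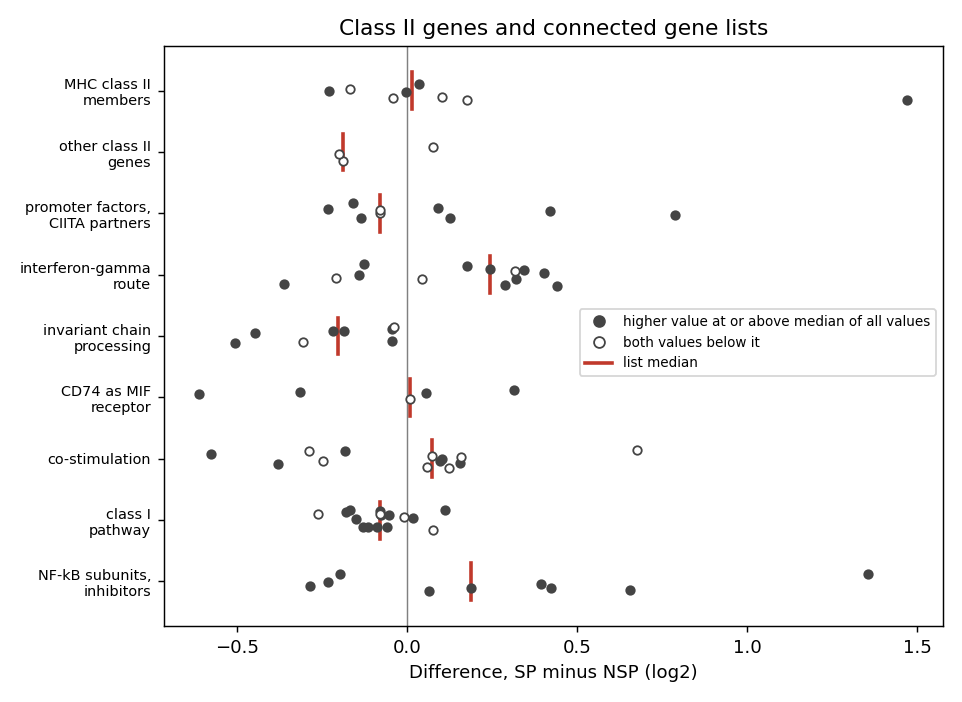
Difference SP minus NSP (log2) of each measured gene in 9 gene lists, with filled points for genes that reached the floor on at least 1 array, open points for those under it, and a red bar at each list's median. CD74 is the far right point of the top row, and the 8 points of the invariant chain processing list, 2 ubiquitin ligases included, all lie left of 0 in these deposited values (6 of 8 after lowess).

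T cells need co-stimulatory signals beside the class II signal, and the list of such genes showed both directions. It also holds the inhibitory ligand genes PDCD1LG2, CD274 and VTCN1, so its counts and median do not describe activating molecules alone. Of 13 measured genes 8 were higher and 5 lower in SP, with a median of 0.07 and a mean of -0.02, which differ in sign. Among all genes at the floor 59.6% were lower in SP. PDCD1LG2, an inhibitory ligand of PD-1, had 7.32 in SP and 7.90 in NSP, a difference of -0.58. TNFSF9, the ligand of 4-1BB, differed by -0.38 and the adhesion molecule gene ICAM1 by -0.18. CD58, a ligand of CD2, differed by 0.15. CD80, a classical ligand of CD28, had 6.98 in SP and 6.30 in NSP, a difference of 0.68 under the floor, and is named because its value stood out. CD86, the other CD28 ligand and named for comparison, had 4.77 in SP and 4.65 in NSP.

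The class I pathway, which shows cytosolic peptides to CD8+ T cells, gave small differences. Of 16 measured genes 13 were lower and 3 higher in SP, with a median of -0.08, and none of the 12 at the floor reached 1.5-fold. With lowess 11 were lower and 5 higher. Of all genes at the floor 59.6% were lower in SP, with a median of -0.05. At 1.5-fold 3.10% of those genes were higher and 1.43% lower, so nothing is read from the absence of such genes here. NLRC5, the class I counterpart of CIITA, had 8.16 in SP and 8.22 in NSP. B2M, the shared light chain, had 10.99 in SP and 11.07 in NSP. PSMB8, an immunoproteasome subunit, differed by -0.18, and CALR and HLA-E by -0.17 and -0.13.

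NF-kB is among the factors known to act on the CD74 promoter, and its subunits and inhibitors went both ways. The inhibitor gene TNFAIP3 differed by 1.36 and NFKBIA by 0.66, and the subunit genes REL and NFKB1 by 0.42 and 0.39. The inhibitor genes NFKBIB and NFKBIE were lower in SP, at -0.29 and -0.23, as was the subunit gene RELB at -0.20, these 3 being named after their values were seen. All 9 genes of the list were measured, of which 6 were higher and 3 lower in SP (median 0.19). They all reached the floor, where 59.6% of all genes were lower in SP and 3.10% at least 1.5-fold higher. TNFAIP3 and NFKBIA passed that fold, and nothing is read from these counts. The part of these 9 genes in the value of CD74 was not tested.

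The difference of CD74 was not shared by its neighbours on chromosome 5. The 3 nearest measured genes on one side, SLC6A7, CAMK2A and TCOF1, differed by 0.02, 0.06 and 0.03. The 3 on the other side, RPS14, NDST1 and SYNPO, differed by -0.14, -0.09 and 0.18. Between HLA-DRA and HLA-DPA1 on chromosome 6 the 7 measured genes that are not members ran from -0.19 to 0.41, with 2 higher and 5 lower in SP. The highest was BRD2, a bromodomain protein gene, with 10.35 in SP and 9.94 in NSP. These neighbours were named by position, a choice made after the values of the members were seen.

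The genes closest to CD74 in both values at once, by distance in the plane of the SP and NSP log2 signals, were YPEL2, FRMD6, SMURF2, CHD2 and TMC3. YPEL2 had 9.08 in SP and 7.63 in NSP, a distance of 0.149, and FRMD6 had 8.82 in SP and 7.68 in NSP, a distance of 0.236. The other 3 lay at distances of 0.377 to 0.455. The likeness covers 2 numbers per gene only, and signals of different probe sets are not amounts of RNA that can be compared.

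Markers of professional antigen-presenting cells and other leukocytes were mostly under the floor. Of 26 markers 23 were measured and 3 reached the floor, namely CD14, CD68 and LCP1, with 12 higher and 10 lower in SP. Their linear signals summed to 3731 in SP, against 4221 in NSP, a sum set mostly by the bright genes LCP1 and CD68. Without these 2, a choice made after seeing the values, the other 21 summed to 1417 in SP, against 1345 in NSP. The median difference of all 23 was 0.01. The highest difference was 0.33, for the monocyte and macrophage gene AIF1, under the floor. The pan-leukocyte gene PTPRC had 3.74 in SP and 3.80 in NSP, and the B cell genes PAX5 and CD79A had 6.61 and 6.12 in SP against 6.59 and 5.94 in NSP. Of 6 measured B cell markers 4 were higher and 2 lower in SP, all under the floor. They ran from CR2 at -0.03 to MS4A1 at 0.27, with 7.37 in SP and 7.10 in NSP. The dendritic cell genes FLT3 and CLEC9A had 4.19 and 4.24 in SP against 4.29 and 4.05 in NSP. Of the markers at the floor, CD14 differed by 0.09, CD68 by -0.31 and LCP1 by -0.32. All 4 endothelial markers lay under the floor, with a median of 0.15. In bulk RNA a larger share of cells with CD74 and more CD74 RNA per cell cannot be told apart.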

How the data were processed

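RNA from sorted J82 SP and NSP cells was measured on 1 human exon array each. The authors deposited log2 signals per probe set, made with RMA and Partek per the submitters' processing notes; the sources used here give no versions, filters, probe set definition or genome build. RMA compresses differences of dim probe sets. No intensities were used, so detection above background is unknown, and 2 arrays limit the precision.

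Of 22011 probe sets, 14432 had 1 gene symbol, 2408 several and 5171 none. Symbols were updated by Entrez identifier in the RefSeq annotation of GRCh38.p14 (14404 matched). Several probe sets of 1 gene were averaged, and the difference is SP minus NSP. Counts used folds of 2 and 1.5 among genes at the floor. No test was run. The members and lists were chosen with earlier results of these data known. The text names all members, the 4 list genes with the largest differences at the floor, some preset genes, markers, and the 5 nearest CD74. Motifs were chosen with the sequences in view. Alternatives were median centring, lowess (span 0.3), quantile normalisation, the brightest probe set, shared probe sets, other floors and means. The calculations were tested on simulated data. Python 3.11.15, numpy 2.4.6, pandas 2.3.3, statsmodels 0.14.6 and matplotlib 3.10.9 were used.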

Additional observations from a re-analysis of the deposited data

How the results depend on the processing

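CD74 kept its sign and its 2-fold difference under median centring, lowess and quantile normalisation, with values of 1.48 to 1.52. Its rank stayed at 7 under each of these scalings. Each of the 8 genes had 1 probe set of its own, so taking the brightest probe set could not change any value. Shared probe sets changed that of HLA-DMB only and could not change that of CD74. None of the 40 recomputed values of the 8 genes, those that could not change included, moved by 0.1 or more. HLA-DPA1 alone turned its sign. With means in place of medians, the class II genes gave 0.17, the promoter factors 0.082, the interferon-gamma route 0.13 and the MIF receptor list -0.11. With both values required at the floor 1 gene was at least 2-fold lower in SP, against 9 with one value at it. With no floor the counts lower in SP were 18 at 2-fold and 175 at 1.5-fold, since dim genes are then counted too. The member median turned to -0.004 without CD74 and to -0.01 with shared probe sets included. That inclusion and the mean without CD74 were chosen after seeing the data. Of the 5 genes nearest CD74, 5 were also found after quantile normalisation. No paired analysis was possible because each population has 1 array, and for the same reason no replicate could be left out.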
